A study of Homo sapiens with 54 samples.

Results

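The genes described here are 10 genes of the splicing control machinery in human neuronal cultures: the 4 CDC2-like kinase genes CLK1, CLK2, CLK3 and CLK4, the 5 serine and arginine rich (SR) splicing factor genes SRSF3, SRSF5, SRSF6, SRSF7 and SRSF11, and LUC7L, which encodes a partner of the U1 snRNP. They were taken by gene name from each of 53 per-library gene tables of 60676 genes, and all 10 were found once in every table. For each gene the tables gave the reads that fell in annotated exons, the reads that fell in introns, the exon reads that crossed a splice junction, and the TPM, a transcript level scaled by exon length and by library size. They were chosen by name, with earlier results of these data known. The shares of all genes given beside their counts are therefore a background and not an independent test of the set.

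The cultures were medium spiny neuron (MSN)-like cells derived from the human embryonic stem cell line H9 (WA09), and all groups came from this 1 line, so that every comparison is within a single genotype. Dopamine, the main neuromodulator of striatal MSNs, was given at 1 mM or 1 µM either as a single exposure of 1 h (Acute) or as a daily exposure of 1 h over 5 days (Chronic). RNA was taken at 1 h or at 24 h after the last dose, with a phosphate-buffered saline (PBS) group for each dose. In a time course, 1 mM dopamine was given daily for 2, 3, 4 or 5 days with RNA taken 1 h after the last dose, against an ascorbic acid control. In the last experiment the D1-like receptor agonist SKF82958 and the D2-like receptor agonist quinpirole, each at 50 µM, were set against Water. Each group had 3 libraries except 5 Day, of which 2 were analysed here. By the study's methods dopamine was dissolved in ascorbic acid and chronic cultures were harvested at a later day of culture than acute ones. The labels of the PBS groups name neither a carrier nor a culture day, so that in the comparisons with PBS the effects of dopamine, of its carrier and of culture age cannot be told apart. The labels call the libraries of a group replicates without saying whether they were separate differentiations, and p-values then measure the spread between these libraries, which may be technical.

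CLK kinases phosphorylate SR proteins, which bind exons and recruit the spliceosome, and that phosphorylation releases SR proteins from nuclear speckles to active genes. Genes of this circuit are known to be regulated through their own splicing. CLK1 and CLK4 transcripts can be held in the nucleus with introns still in place, and many SR genes carry poison exons whose inclusion sends the transcript to nonsense-mediated decay. A change in the reads over introns of these genes can therefore go with a change in level in either direction.

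The exon best known for this control is exon 4 of the CLK kinase genes, whose skipping removes the kinase domain from the protein, and it lies next to introns that can be kept. It is shown for the 4 genes because the introns beside it are among those that some annotated transcripts keep. The sequences are from hg38 on the transcribed strand, with exon 4 of the canonical transcript in capitals and 12 flanking intron bases on each side in lower case.
CLK1, chr2:200860125-200860215, minus strand: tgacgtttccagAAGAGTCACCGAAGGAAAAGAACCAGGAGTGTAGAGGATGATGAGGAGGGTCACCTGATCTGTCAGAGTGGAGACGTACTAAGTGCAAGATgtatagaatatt
CLK2, chr1:155268708-155268795, minus strand: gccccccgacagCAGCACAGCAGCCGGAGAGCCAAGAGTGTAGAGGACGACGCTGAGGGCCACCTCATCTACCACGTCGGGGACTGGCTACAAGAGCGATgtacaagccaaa
CLK3, chr15:74622120-74622216, plus strand: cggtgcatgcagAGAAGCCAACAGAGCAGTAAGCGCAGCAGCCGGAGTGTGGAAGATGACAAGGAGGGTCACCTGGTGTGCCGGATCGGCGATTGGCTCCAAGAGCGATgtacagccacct
CLK4, chr5:178617344-178617434, minus strand: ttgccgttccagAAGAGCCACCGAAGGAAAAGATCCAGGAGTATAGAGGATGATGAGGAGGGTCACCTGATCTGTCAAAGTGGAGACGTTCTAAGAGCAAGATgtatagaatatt
The exons are 91, 88, 97 and 91 bases long in this order, and none of these lengths is a multiple of 3, so that skipping shifts the reading frame. Exon 4 of CLK1 and that of CLK4 were the closest pair, with 85 of 91 bases identical (93.4%), while the other 5 pairs lay between 62.6% and 66.3%. In spite of this likeness, 100% of the exon reads of both CLK1 and CLK4 were placed uniquely in the 52 libraries other than Quinpirole replicate 1.

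The deposited counts hold 1 exon total and 1 intron total per gene and no count for a single exon or intron. In release 44 of the GENCODE annotation, 22 of the 92 introns of the 10 canonical transcripts lie wholly inside an exon of another annotated transcript of the same gene, in 9 of the 10 genes. For CLK1 these were introns 2, 3, 4 and 7, for CLK2 introns 4, 10 and 11, for CLK3 introns 3 and 4, and for CLK4 introns 3, 4, 11 and 12, so that all 4 kinase genes have at least 1 such intron beside exon 4. Reads from those introns count as exon reads where the annotation used for counting holds the same transcripts. SRSF5 was the most affected gene, with introns 2 to 5 and 75.45% of its canonical intron bases annotated as exonic somewhere, and SRSF6 had none. The intron total therefore covers the introns that are not annotated as retained, and the exon total mixes mature and intron-keeping transcripts.

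On hg38 the genes lie at chr2:200853009-200864744 (CLK1, minus strand), chr1:155262868-155278491 (CLK2, minus), chr15:74598500-74645414 (CLK3, plus), chr5:178602664-178630615 (CLK4, minus), chr6:36594353-36605600 (SRSF3, plus), chr14:69726900-69772005 (SRSF5, plus), chr20:43457893-43466046 (SRSF6, plus), chr2:38743599-38751494 (SRSF7, minus), chr1:70205682-70253052 (SRSF11, plus) and chr16:188969-229463 (LUC7L, minus). SRSF6 shares 7993 bases with the gene AL031681.3 on the same strand, and 73.9% to 90.8% of its exon reads were unique. Of its intron reads 0% to 9.26% were unique, with a median of 2.22% over the 52 libraries other than Quinpirole replicate 1. All intron and ratio values of SRSF6 given below are therefore uncertain. CLK3 shares 14857 bases with EDC3 on the opposite strand, and its unique share of intron reads fell as low as 24.2%. Whether counting used the strand is not given in the sources used here, so that reads of CLK3 and EDC3, and of SRSF11 and its antisense gene AL353771.1, cannot be told apart by strand.

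Reads on genes ranged from 4121674 to 33715972 per library with a median of 13512153, and no 2 libraries held identical values. Quinpirole replicate 1 stood apart: 96.7% of its gene reads were intronic, against 16.0% and 18.5% in the other quinpirole libraries, and CLK1, CLK2, CLK3 and CLK4 had no junction read in it. 1 mM Acute 24 h replicate 1 also stood apart, with mitochondrial genes at 0.826% of exon reads against 2.49% and 2.58%, and with the summed dividing-cell markers at 122 TPM against 431 and 432. 1 µM Acute 1 h replicate 2 had 31.2% intron reads against 20.2% and 23.8% in its group. For the comparisons that hold one of these 3 libraries, the calls of the 10 genes in exon reads, intron reads and their ratio are given with and without it. Replicate 2 of 1 µM PBS, Acute 1 h and Chronic 1 h also had the highest mitochondrial share of exon reads of their groups (12.4%, 12.6% and 12.8%, against 4.25% to 7.50% in the others) and the lowest share of junction reads, and 5 Day replicate 2 was at 12.1% against 5.70%. Neuronal markers were high (median TUBB3 821 and MAP2 458 TPM), as were progenitor markers (VIM 1295 and SOX2 504 TPM), whereas the striatal markers PPP1R1B and DRD1 had medians of 13.96 and 1.64 TPM. In 1 mM PBS and 1 mM Acute 1 h the summed markers were 1664 to 1909 and 1630 to 1798 TPM for neurons, and 449 to 474 and 385 to 430 TPM for dividing cells. In such bulk RNA, fewer cells of a type and less RNA per cell cannot be told apart.

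In the 1 mM PBS cultures SRSF5 had the highest TPM of the 10 genes at 288 to 317 and CLK3 the lowest at 14.7 to 17.6. TPM divides by the length of all annotated exons, which was 20398 bases for CLK3 and 3658 to 8473 for the others. The place of CLK3 in this order thus depends on the annotation. In exon reads CLK3 was above CLK4, with medians of 648.5 and 287.5 over the 52 libraries other than Quinpirole replicate 1. Between them came SRSF11 (163 to 170 TPM), CLK1 (152 to 157), SRSF6 (132 to 151), SRSF7 (118 to 131), SRSF3 (93.2 to 118), LUC7L (86.2 to 94.9), CLK2 (58.7 to 65.6) and CLK4 (26.6 to 28.3). Among neighbours in this order only the ranges of SRSF3 and LUC7L overlapped, and those of SRSF7 and SRSF3 were less than 1 TPM apart. The controls of the 4 experiments differed in level. CLK1 stood at 152, 157 and 154 TPM in 1 mM PBS, at 152, 130.4 and 134 TPM in 1 µM PBS, at 54.2, 58.5 and 52.4 TPM in the ascorbic acid control and at 26.9, 27.6 and 29.8 TPM in Water. CLK4 went from 26.6 to 28.3 TPM in 1 mM PBS down to 5.96 to 7.97 TPM in Water. SRSF3 was lowest in 1 µM PBS at 58.4, 32.8 and 54.4 TPM and stood at 105 to 124 TPM in Water. The controls differ in carrier and experiment together, which cannot be told apart, and no test was made between them.

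The first comparison asked what a single exposure to 1 mM dopamine did to the level of these genes within 1 h. CLK1 fell to about a 3-fold lower level, CLK3, CLK4, SRSF11 and LUC7L fell, and the SR factor genes SRSF3, SRSF6 and SRSF7 rose. CLK1, the kinase of the family best known for autoregulated splicing, was at 152, 157 and 154 TPM in PBS and at 48.1, 50.0 and 51.0 TPM 1 h after the exposure. The groups were far apart, and the log2 fold change in exon reads was −1.57 ± 0.13 (SE; adjusted p = 2.43e-05, edgeR's quasi-likelihood test with Benjamini-Hochberg adjustment, as for every adjusted p of this report). CLK4, its closest relative, went from 28.3, 27.8 and 26.6 to 12.5, 11.4 and 13.5 TPM (−1.08 ± 0.21, adjusted p = 0.00531). CLK3 went from 17.6, 16.8 and 14.7 to 10.6, 9.31 and 9.09 TPM (−0.69 ± 0.10, adjusted p = 0.00088). The lowest PBS library was above the highest treated library for each of these kinases. CLK2 was at 60.3, 65.6 and 58.7 TPM in PBS and 55.1, 51.8 and 44.9 TPM after dopamine, and its change of −0.22 ± 0.12 did not pass (adjusted p = 0.24).

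SRSF3, the smallest SR protein and a binder of its own poison exon, moved the other way, from 118, 93.2 and 106 TPM in PBS to 200.2, 207 and 221 TPM (1.05 ± 0.25, adjusted p = 0.0138). SRSF6 went from 151, 147 and 132 to 214, 222 and 229 TPM (0.69 ± 0.21, adjusted p = 0.0384). SRSF7, an SR protein with a zinc knuckle, went from 131, 118 and 127 to 174, 176 and 179 TPM (0.56 ± 0.16, adjusted p = 0.0294). Every treated library of these SR genes was above every PBS library. SRSF5 was at 304, 317 and 288 TPM in PBS and 255, 232 and 243 TPM after dopamine, a change of −0.25 ± 0.28 that did not pass. SRSF11, a speckle protein that acts on splice site choice, went from 169, 169.5 and 163 to 116, 117 and 120.3 TPM (−0.44 ± 0.07, adjusted p = 0.00217). LUC7L, which helps the U1 snRNP to choose 5′ splice sites, went from 94.3, 94.9 and 86.2 to 64.0, 56.3 and 56.5 TPM (−0.57 ± 0.12, adjusted p = 0.00711). In all, 3 of the 10 genes rose and 5 fell, where 16% of 17804 tested genes passed (8.04% higher and 7.94% lower). The median log2 fold change was −0.35 over the 10 genes and 0.01 over all genes. Leaving out 1 mM PBS replicate 2 or 1 mM Acute 1 h replicate 3 took the calls of the whole 1 mM experiment from 10 to 6. Over all genes the calls at Acute 1 h alone went from 2845 to 1345 and 1229 without these libraries. Without 1 mM Acute 24 h replicate 1, which is in neither group and enters through the filter, the scaling and the shared estimate of spread, the same 8 genes passed and SRSF5 with them (−0.27), where 39.8% of all genes passed.

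**Figure D1:**
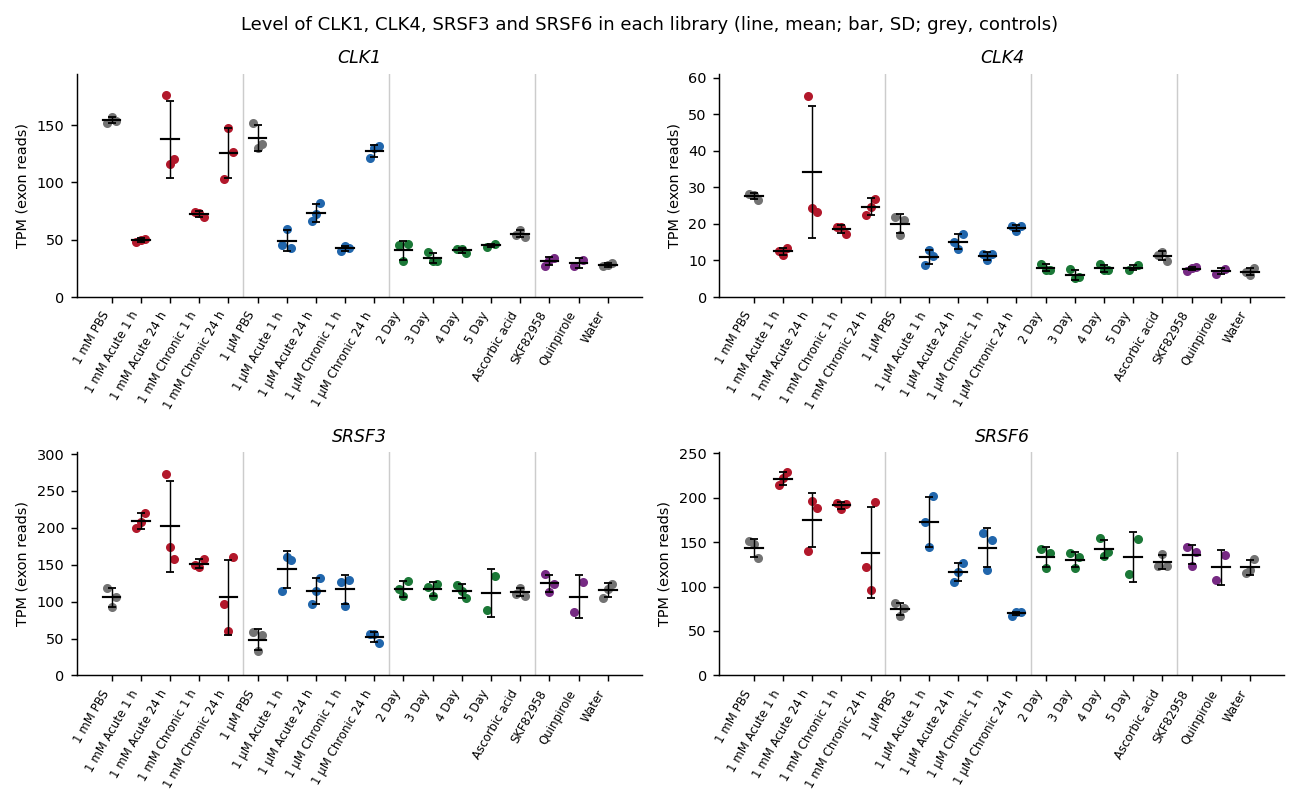
TPM of CLK1, CLK4, SRSF3 and SRSF6 in each library by group, with lines at the group mean, bars of 1 SD, grey points for controls and Quinpirole replicate 1 left out. CLK1 and CLK4 sit below their PBS group 1 h after dopamine at both doses, SRSF3 and SRSF6 sit above it, and CLK1 is low in every group of the time course and agonist experiments.

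The next comparisons asked how long these changes lasted at 1 mM and whether repeated dosing altered them. At 24 h after a single exposure CLK1 was at 176, 116 and 120.3 TPM, where replicate 1 was above every PBS library and the other libraries below them all. With all libraries, only SRSF3 passed (273, 175 and 158 TPM, 0.79 ± 0.25, adjusted p = 0.0467), where 15.5% of all genes did. Without the deviating replicate 1 of that group, which had the highest CLK4 value of the experiment at 55.1 TPM against 24.4 and 23.3, 5 genes passed, where 22.3% of all genes did, and all were lower: CLK1 (−0.43), CLK3 (−0.33), CLK4 (−0.26), SRSF5 (−0.29) and SRSF11 (−0.23), while SRSF3 at 0.60 did not pass. Over the 4 comparisons with PBS at 1 mM, the calls went from 10 of 40 with that library to 20 of 40 without it. All genes shifted as well. Their share went from 16% to 39.8% at Acute 1 h, from 15.5% to 22.3% at Acute 24 h and from 2.08% to 18.4% at Chronic 1 h. At Chronic 24 h it went from 118 of 17804 to 1542 of 18178 genes.

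After 5 daily exposures to 1 mM, CLK1 was the only one of the 10 genes to pass at 1 h. It was at 74.3, 73.7 and 69.8 TPM, about 2-fold below PBS (−1.13 ± 0.13, adjusted p = 0.000702), where 2.08% of all genes passed. The other kinases CLK4 (19.3, 19.1 and 17.2 TPM, −0.61 ± 0.21, adjusted p = 0.15) and CLK3 (13.02, 13.6 and 12.99 TPM, −0.35 ± 0.10, adjusted p = 0.083) were below PBS in every library without passing. SRSF3 at 149, 146 and 158 TPM was above every PBS library, and its change of 0.47 ± 0.25 did not pass. The summed dividing-cell markers were at 310 to 328 TPM in these libraries against 449 to 474 in PBS, and the progenitor markers at 2091 to 2266 against 2317 to 2793 TPM, and their part in these values was not tested. Set directly against the single exposure, CLK1 was higher after repeated exposure (0.44 ± 0.13, adjusted p = 0.0395) and so was CLK3 (0.34 ± 0.10, adjusted p = 0.04), where 11.3% of all genes passed. Leaving out any 1 library of the Acute 1 h or Chronic 1 h groups left 0 or 1 of these 2 calls. Over all genes the calls in this comparison then went from 2008 to between 818 and 1217. Without 1 mM Acute 24 h replicate 1, again in neither group, 6 passed in that comparison (CLK1, CLK3, CLK4, SRSF11 and LUC7L higher, SRSF7 lower) and 5 against PBS (CLK1, CLK3, CLK4, SRSF5 and SRSF11, all lower), where 34% and 18.4% of all genes passed.

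At 24 h after the fifth exposure to 1 mM none of the 10 genes passed, where 0.663% of all genes did. CLK1 was the only one of them with an unadjusted p under 0.05, and DESeq2 also called none. CLK1 was at 103, 147 and 127 TPM, all below the PBS libraries (−0.32 ± 0.12, adjusted p = 0.34). The SR genes were spread widely in this group, with SRSF3 at 96.4, 60.4 and 160.0 TPM and SRSF6 at 122, 96.5 and 196 TPM, and these ranges enclosed those of PBS.

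At 1 µM the same genes moved most. 1 h after a single exposure SRSF3, SRSF6 and SRSF7 rose and CLK1 and CLK4 fell, 5 of 10 genes where 5.77% of 16541 tested genes passed (3.25% higher and 2.52% lower). CLK1 went from 152, 130.4 and 134 TPM in PBS to 45.7, 59.4 and 42.5 TPM (−1.45 ± 0.21, adjusted p = 0.000985). CLK4 went from 22.0, 17.1 and 21.2 to 8.84, 12.9 and 11.1 TPM (−0.82 ± 0.20, adjusted p = 0.0231). The highest treated library of each was replicate 2, the one with the high intron share, and without it the changes were −1.76 for CLK1 and −1.11 for CLK4, both past the threshold. SRSF3 went from 58.4, 32.8 and 54.4 to 115, 160.0 and 157 TPM (1.64 ± 0.17, adjusted p = 6.88e-05). SRSF6 went from 81.4, 67.1 and 75.6 to 172, 145 and 201 TPM (1.21 ± 0.11, adjusted p = 2.64e-05). SRSF7 went from 75.2, 57.6 and 71.3 to 97.6, 108 and 129 TPM (0.74 ± 0.14, adjusted p = 0.00508). None of these 5 genes had overlapping groups. CLK2, CLK3, SRSF5, SRSF11 and LUC7L had changes between −0.25 and 0.09, and none passed. Without replicate 2 the same 5 genes passed, with SRSF3 at 1.40, SRSF6 at 1.21 and SRSF7 at 0.63, where 6.52% of all genes did. The dividing-cell markers summed to 553 to 659 TPM in these libraries against 718 to 787 TPM in PBS, and their part was not tested. When only the 6 libraries of these groups were fitted, SRSF3 and SRSF6 still passed and CLK1 did not (adjusted p = 0.083).

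A day after a single exposure to 1 µM CLK1 was at 66.4, 72.5 and 81.9 TPM (−0.98 ± 0.21, adjusted p = 0.0209), SRSF3 was at 96.8, 115 and 132 TPM (1.21 ± 0.17, adjusted p = 0.0016), and SRSF6 (0.58 ± 0.11, adjusted p = 0.0104) and SRSF7 (0.62 ± 0.13, adjusted p = 0.0236) also passed, where 3.31% of all genes did. 1 h after the fifth daily exposure CLK1 was at 40.2, 44.1 and 42.8 TPM (−1.66 ± 0.21, adjusted p = 0.000974) and CLK4 at 11.9, 10.1 and 11.7 TPM (−0.79 ± 0.19, adjusted p = 0.0437). SRSF3 (127, 94.2 and 129 TPM, 1.33 ± 0.17, adjusted p = 0.000884), SRSF6 (160.1, 119 and 153 TPM, 0.98 ± 0.11, adjusted p = 0.00029) and SRSF7 (0.71 ± 0.14, adjusted p = 0.0117) were higher, so that again 5 of 10 genes passed, where 2.58% of all genes did. Repeated and single exposure at 1 µM did not differ past the threshold for any of the 10 genes, where 1.2% of all genes did: SRSF6 alone had an unadjusted p under 0.05, CLK1 differed by −0.21 ± 0.21, and DESeq2 also called none of the 10. Without 1 µM Acute 1 h replicate 2 none of the 10 passed either, where 1.17% of all genes did. At 24 h after the fifth exposure CLK1 was at 121, 129.8 and 131 TPM, SRSF3 at 55.5, 55.8 and 43.6 TPM and SRSF6 at 67.3, 71.1 and 70.9 TPM. There edgeR called 0% of all genes, with 608 at an unadjusted p under 0.05 and none of the 10 among them, and DESeq2 called 1 gene.

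The fold changes 1 h after a single exposure were then set against each other between doses, in 1 fit of the 12 libraries with a term for the difference. None of the 10 genes passed in exon reads, where 0.935% of 16997 genes did. CLK1 changed by −1.57 at 1 mM and −1.45 at 1 µM, and the difference of −0.11 ± 0.27 was below its error. The differences of CLK3 (−0.62 ± 0.18, adjusted p = 0.14), SRSF3 (−0.58 ± 0.25, adjusted p = 0.33), SRSF6 (−0.52 ± 0.15, adjusted p = 0.12) and LUC7L (−0.46 ± 0.15, adjusted p = 0.17) had an unadjusted p under 0.05. DESeq2 called 3 of the 10, a count without a share of all genes beside it. All 10 differences were negative, so that the exon reads at 1 mM fell more or rose less than at 1 µM, with a median of −0.29 over the 10 genes and −0.01 over all genes. Without 1 µM Acute 1 h replicate 2 CLK3 passed (−0.67), where 3.41% of all genes did, and the differences of CLK1 (0.19) and CLK4 (0.03) were positive.

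The time course asked how the level changed with the number of daily doses at 1 mM. CLK1 was below the ascorbic acid control in all libraries of all 4 days. It stood at 54.2, 58.5 and 52.4 TPM in the control, at 45.6, 31.4 and 45.9 TPM on day 2, at 39.1, 31.8 and 31.6 TPM on day 3, at 41.7, 42.2 and 38.3 TPM on day 4 and at 43.9 and 46.2 TPM on day 5. The change passed on day 3 only (−0.59 ± 0.12, adjusted p = 0.00883). CLK4 was likewise lowest on day 3, at 7.54, 5.17 and 5.35 TPM against 11.6, 12.5 and 9.98 TPM in the control (−0.81 ± 0.13, adjusted p = 0.00236), and it also passed on day 4 (−0.50 ± 0.13, adjusted p = 0.0463). Whether day 3 differed from the other days was not tested. CLK2 (−0.41 ± 0.08, adjusted p = 0.0127), CLK3 (−0.28 ± 0.07, adjusted p = 0.0404) and LUC7L (−0.29 ± 0.07, adjusted p = 0.0255) passed on day 4, all lower. CLK2 was at 54.7, 47.1 and 48.9 TPM on that day against 71.1, 68.7 and 63.7 TPM in the control, and LUC7L at 52.5, 43.9 and 45.3 TPM against 61.4, 58.8 and 55.5 TPM.

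SRSF5 was the only gene of the 10 to rise in the time course. It was at 148, 149.9 and 138 TPM in the control, at 181, 168 and 174 TPM on day 2 (0.39 ± 0.07, adjusted p = 0.00488) and at 161 and 189 TPM on day 5 (0.40 ± 0.07, adjusted p = 0.0148), with 139.6, 134 and 138 TPM on day 3. SRSF3 stayed between 89.0 and 135 TPM on all days against 108 to 119 TPM in the control and never passed, and neither did SRSF6, SRSF7 or SRSF11. The counts were 1, 2, 4 and 1 of 10 genes on days 2 to 5, where 3.88%, 7.37%, 4.38% and 1.63% of all genes passed. Leaving out ascorbic acid control replicate 1 took the 8 calls to 3, the fewest with any 1 library left out. Over all genes the calls on days 2 to 5 went from 651, 1236, 734 and 274 to 196, 370, 215 and 64 in that fit. The collagen-led mesenchymal markers summed to 161 to 218 TPM in the control and to 249.2 to 440 TPM on day 3. The dividing-cell markers summed to 355 to 395 TPM in the control, 210 to 295 on day 3 and 258 to 311 on day 4, and the striatal-type markers to 116 to 126 TPM in the control and 71.0 to 109 TPM on days 2 to 4. The part of these markers in the values of the 10 genes was not tested.

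Neither receptor agonist moved any of the 10 genes past the threshold. CLK1 was at 27.4, 32.0 and 34.3 TPM with SKF82958 and at 26.9, 27.6 and 29.8 TPM in Water, a difference of 0.07 ± 0.11. It was at 87.2, 26.9 and 32.6 TPM with quinpirole, where 87.2 came from the deviating library, and without it the difference was 0.13 for CLK1 and 0.06 for CLK4. By edgeR 0.0124% of all genes passed with SKF82958 and 0% with quinpirole in exon reads, with 185 and 350 genes at an unadjusted p under 0.05 and none of the 10 among them, and DESeq2 called none of the 10 either. The standard errors ran up to 0.64 for SRSF6 in this fit, which holds the deviating library. Without it they were at most 0.13 over the 10 genes, and again none of the 10 passed or had an unadjusted p under 0.05, where 0.624% and 0.184% of all genes passed. The immediate early genes FOS and EGR1 were already at 204 to 280 and 554 to 637 TPM in Water, against 12.6 to 19.1 and 13.9 to 19.2 TPM in 1 mM PBS, and FOSB at 23.5 to 25.8 TPM against 0.332 to 0.988. The part of this state of the control in the agonist result was not tested.

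The intron reads were compared in 3 ways: as counts of their own, as a ratio to the exon reads of the same gene and library relative to the ratio of all genes, and as the plain ratio. The distinction matters because the intron share of all gene reads went from 19.5 to 21.8% in 1 mM PBS to 12.3 to 13.2% in 1 mM Acute 1 h and 12.5 to 15.9% in 1 mM Acute 24 h, and was 20.6 to 20.9% in 1 mM Chronic 1 h. The median plain ratio of all genes moved by −0.82 and −0.72 on the log2 scale at the acute time points and by less than 0.01 in 1 mM Chronic 1 h. Each gene had 10 to 3060 intron reads per library outside Quinpirole replicate 1, with medians from 33.5 for SRSF5 to 839.5 for SRSF11. The 95% Wilson interval of a gene's intron share in 1 library reached at most 7.03 percentage points to each side for CLK4 and 3.63 for the other genes, for counting error only.

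At 1 h after a single exposure to 1 mM, the change from PBS was set against that of all genes. By this measure the intron reads per exon read rose for the kinase genes and fell for LUC7L. CLK1 had 13.6, 10.9 and 7.72 intron reads per 100 exon reads in PBS and 20.5, 17.6 and 17.8 after dopamine. The lowest treated library was above the highest PBS library, and relative to all genes the ratio rose by 1.71 ± 0.16 on the log2 scale (adjusted p = 8.3e-06). CLK3 went from 12.8, 10.6 and 9.37 to 13.7, 16.4 and 17.9 per 100 (1.43 ± 0.19, adjusted p = 7.21e-05). Both also passed as a plain ratio, at 0.83 for CLK1 (adjusted p = 0.0032) and 0.55 for CLK3 (adjusted p = 0.019). For CLK1 the intron reads themselves changed by 0.36 ± 0.18 relative to all intron reads, which did not pass (adjusted p = 0.11), while its exon reads fell.

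The relative ratio also rose for CLK4 (0.97 ± 0.21, adjusted p = 0.00277), CLK2 (0.78 ± 0.20, adjusted p = 0.0077) and SRSF11 (1.00 ± 0.16, adjusted p = 0.000281). These 3 rested on the scaling. CLK4 had 32.6, 29.1 and 27.3 intron reads per 100 exon reads in PBS and 34.3, 35.3 and 25.7 after dopamine, SRSF11 had 28.8, 28.7 and 25.3 and then 30.7, 29.1 and 30.0, and neither passed as a plain ratio (0.09 and 0.12). CLK2 went from 20.8, 15.1 and 13.9 to 16.1, 14.8 and 14.9, and its plain ratio had the opposite sign (−0.10, adjusted p = 0.70). They thus held about the same intron reads per exon read while the median of all genes fell.

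LUC7L fell on both scales, from 46.2, 59.2 and 51.0 to 15.5, 19.4 and 15.1 intron reads per 100 exon reads, by −0.77 ± 0.28 relative to all genes (adjusted p = 0.0475) and by −1.65 as a plain ratio (adjusted p = 0.00014). SRSF3 (7.02, 6.85 and 5.77 to 3.98, 3.76 and 3.54), SRSF5 (2.81, 2.53 and 1.52 to 0.651, 0.681 and 0.996), SRSF6 (18.9, 19.1 and 18.8 to 9.09, 7.87 and 7.96) and SRSF7 (6.36, 8.91 and 5.72 to 3.99, 3.06 and 4.18) all had fewer intron reads per 100 exon reads in every treated library. As a plain ratio these 4 SR genes passed, with changes from −1.54 for SRSF5 to −0.80 for SRSF3, whereas relative to all genes none passed and the changes lay between −0.66 and 0.08. In the relative ratio 5 of the 10 genes rose and 1 fell, where 29.5% of 16115 genes passed (15.5% higher and 14% lower), with a median of 0.43 over the 10 genes and 0.05 over all. In the plain ratio 2 rose and 5 fell, where 0.863% of all genes passed higher and 59% lower, so that a lower plain ratio was the common case and a higher one rare. Leaving out 1 mM PBS replicate 2 or 3 took the calls of the whole 1 mM experiment in the relative ratio from 12 to 6. Over all genes the calls at Acute 1 h alone went from 4754 to 3116 and 3750 without these libraries. Without 1 mM Acute 24 h replicate 1 the same 6 genes passed and SRSF5 with them (−0.65), where 39.1% of all genes did.

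As counts of their own, scaled among intron reads, those of SRSF3 (1.36 ± 0.22, adjusted p = 0.000303), CLK3 (0.95 ± 0.19, adjusted p = 0.00119), CLK2 (0.80 ± 0.26, adjusted p = 0.0207), SRSF11 (0.79 ± 0.16, adjusted p = 0.00116) and SRSF7 (0.78 ± 0.20, adjusted p = 0.00466) were higher at 1 mM Acute 1 h and those of LUC7L (−1.11 ± 0.25, adjusted p = 0.0025) and SRSF5 (−0.71 ± 0.26, adjusted p = 0.0346) lower, 7 of 10 where 45.2% of 23718 genes passed (23.1% higher and 22.1% lower). Scaled by the exon reads instead, the median of all genes was −1.07 and the rises of CLK2, CLK3, SRSF7 and SRSF11 turned negative (−0.33, −0.16, −0.33 and −0.32), so that their direction is that of the scale. The same 7 genes passed without 1 mM Acute 24 h replicate 1, where 51.8% of all genes did.

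After 5 daily exposures to 1 mM the scale mattered less. CLK1 stood at 25.0, 28.1 and 23.4 intron reads per 100 exon reads, above every PBS and Acute 1 h library, and passed in both the relative ratio (1.28 ± 0.16, adjusted p = 0.000336) and the plain ratio (1.28, adjusted p = 0.0043). CLK2 (26.1, 26.4 and 28.1 per 100, 0.71 ± 0.19, adjusted p = 0.0369) and CLK3 (17.5, 15.8 and 20.7 per 100, 0.72 ± 0.18, adjusted p = 0.0248) rose in the relative ratio, and SRSF6 fell (11.5, 13.6 and 12.01 per 100, −0.62 ± 0.17, adjusted p = 0.0401), 4 of 10 where 5.2% of all genes passed. Without 1 mM Acute 24 h replicate 1 SRSF3 (−0.52) and SRSF11 (0.43) passed with them, 6 of 10 where 13.4% of all genes did. As plain ratios CLK2, CLK3 and SRSF6 had the same values and did not pass (adjusted p = 0.083, 0.053 and 0.082). CLK1 was thus below its PBS level in exon reads and above it in intron reads per exon read at both the first and the fifth exposure. Against the single exposure, the relative ratio was lower after repeated exposure for CLK3 (−0.70 ± 0.18, adjusted p = 0.017) and SRSF11 (−0.56 ± 0.16, adjusted p = 0.0235), where 14.5% of all genes passed, and as plain ratios both were positive (0.17 and 0.31). The relative ratio of CLK1 differed by −0.43 ± 0.16, which did not pass (adjusted p = 0.0826). Leaving out any 1 library of those groups left 0 or 1 of the calls. Over all genes the calls in this comparison then went from 2338 to between 869 and 1812. Leaving out 1 mM Acute 24 h replicate 1 or 2 gave 5 or 4, with 4256 or 2602 over all genes. The 5 without replicate 1 were CLK1 (−0.45), CLK3, CLK4, SRSF3 and SRSF11, all lower, where 25.8% of all genes passed. SRSF11 stood at 37.7, 36.4 and 37.7 intron reads per 100 exon reads, above all its acute and PBS libraries at 1 mM.

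The intron reads of SRSF3 (−1.38 ± 0.22, adjusted p = 0.00065), SRSF7 (−0.96 ± 0.20, adjusted p = 0.0025), SRSF11 (−0.59 ± 0.16, adjusted p = 0.011) and CLK3 (−0.56 ± 0.19, adjusted p = 0.031) were also lower after repeated than after single exposure, where 32.9% of all genes passed, and those of SRSF7, SRSF11 and CLK3 turned positive when scaled by exon reads. Without 1 mM Acute 24 h replicate 1 these 4 and SRSF6 (−0.72) passed, where 38.1% of all genes did. Against PBS the repeated exposure at 1 h moved the intron reads of none of the 10 genes past the threshold by edgeR, with 3 at an unadjusted p under 0.05 (CLK2, SRSF5 and LUC7L), where 2.54% of all genes passed, and DESeq2 called 1. Without that library LUC7L passed (−0.72), where 8.52% of all genes did. At 24 h after the single exposure CLK3 (0.65 ± 0.18, adjusted p = 0.0216) and SRSF6 (0.53 ± 0.17, adjusted p = 0.0344) rose in the relative ratio, where 19.7% of all genes passed, and their plain ratios were negative (−0.13 and −0.24). The intron reads of SRSF6 (0.95), CLK2 (0.76), CLK3 (0.58) and SRSF11 (0.42) were higher at that time, where 38% of all genes passed. Without the deviating replicate 1 of this group CLK3 (0.58), SRSF6 (0.63) and SRSF11 (0.59) passed in the relative ratio, where 21.5% of all genes did. In intron reads SRSF6 (1.15), CLK2 (0.77), SRSF3 (0.63), SRSF11 (0.51) and SRSF7 (0.47) were then higher and SRSF5 (−0.74) lower, and CLK3 did not pass, where 37.7% of all genes did. At 24 h after the fifth exposure none of the 10 passed in the ratio or the intron reads, with no unadjusted p under 0.05 among them, where 0% and 0.118% of all genes passed, with 959 and 1067 genes at an unadjusted p under 0.05.

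**Figure D2:**
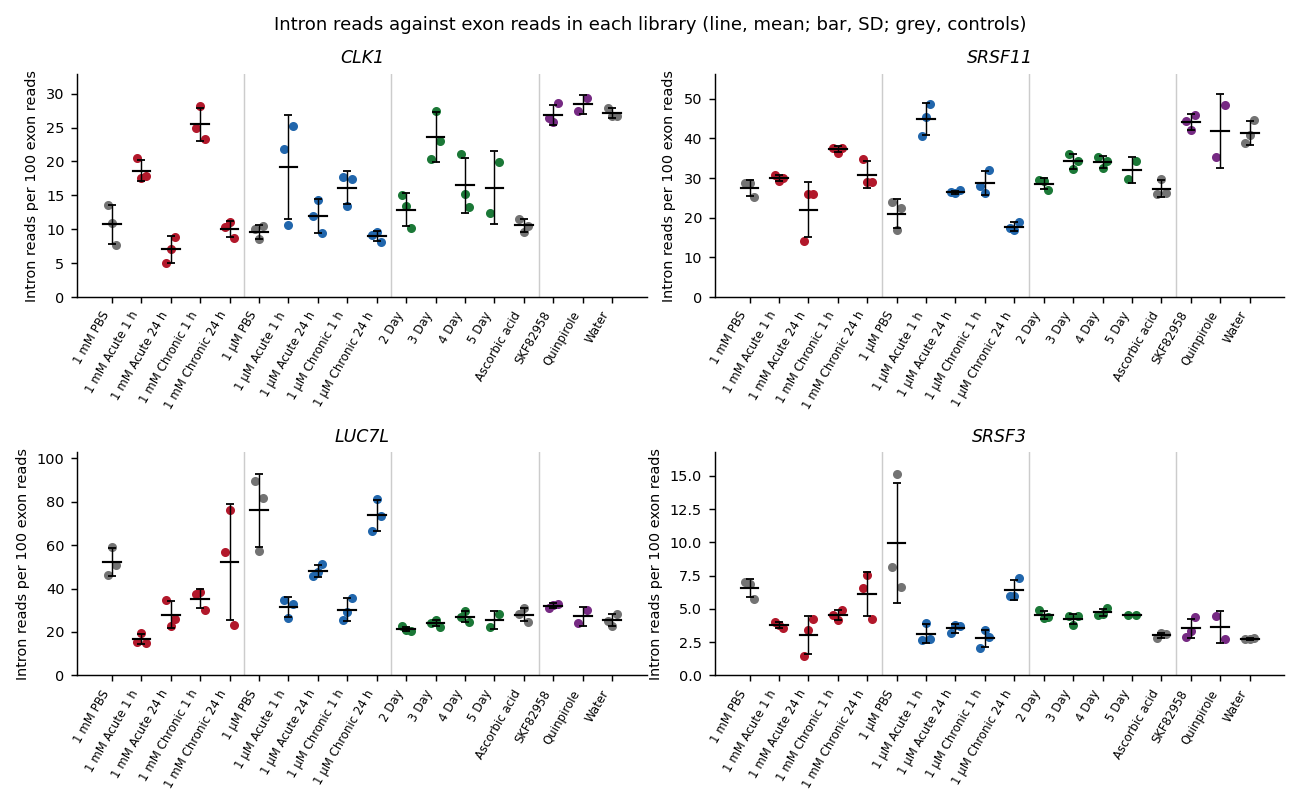
Intron reads per 100 exon reads of CLK1, SRSF11, LUC7L and SRSF3 in each library by group, with lines at the group mean, bars of 1 SD, grey points for controls and Quinpirole replicate 1 left out. CLK1 is above its PBS group 1 h after 1 mM dopamine and highest there in 1 mM Chronic 1 h at 23.4 to 28.1, SRSF11 is highest in 1 µM Acute 1 h at 40.6 to 48.6, and LUC7L and SRSF3 are below their PBS groups 1 h after dopamine at both doses.

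At 1 µM the intron ratio fell on both scales for SRSF3, SRSF5 and LUC7L, where the plain ratio passed for 4.96% of all genes lower and 4.23% higher. 1 h after a single exposure SRSF3 went from 8.11, 15.1 and 6.67 to 2.68, 3.95 and 2.75 intron reads per 100 exon reads, a change of −1.75 ± 0.24 relative to all genes (adjusted p = 0.000143) and of −1.59 as a plain ratio (adjusted p = 0.003). SRSF5 went from 2.05, 2.35 and 1.85 to 0.524, 1.43 and 0.705 (−1.39 ± 0.26, adjusted p = 0.0015, plain −1.21). LUC7L went from 89.5, 57.2 and 81.5 to 34.9, 26.3 and 33.0 (−1.40 ± 0.28, adjusted p = 0.00296, plain −1.26). All treated libraries of these genes were below all PBS libraries. SRSF6 fell by −0.60 ± 0.18 relative to all genes (adjusted p = 0.028), and neither its plain ratio (−0.46, adjusted p = 0.23) nor its relative ratio without replicate 2 (−0.56) passed.

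SRSF11 rose on both scales at 1 µM, from 23.9, 16.9 and 22.4 to 40.6, 45.3 and 48.6 intron reads per 100 exon reads (0.96 ± 0.26, adjusted p = 0.0172, plain 1.10). CLK1 was at 9.99, 8.49 and 10.4 per 100 in PBS and 21.8, 10.6 and 25.2 after dopamine, so that replicate 2 was just above the highest PBS library and the others far above it. Its change was 0.78 ± 0.40 with that library (adjusted p = 0.20) and 1.37 without it, which passed. In the relative ratio 1 of 10 genes rose and 4 fell, where 16% of 14455 genes passed (6.3% higher and 9.75% lower). Without replicate 2 SRSF3 (−1.70), SRSF5 (−1.64) and LUC7L (−1.07) were lower and CLK1 and SRSF11 (1.17) higher, where 10.4% of all genes passed. In intron reads CLK4 (−1.21 ± 0.28, adjusted p = 0.00942), SRSF5 (−1.46 ± 0.38, adjusted p = 0.0197) and LUC7L (−1.62 ± 0.29, adjusted p = 0.00176) fell, where 12.8% of all genes passed (3.76% higher and 9.04% lower). Without replicate 2 these 3 passed and SRSF11 (0.72) was higher, where 9.88% of all genes passed.

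At 24 h SRSF3 (3.17, 3.76 and 3.73 per 100, −1.13 ± 0.24, adjusted p = 0.0175) and SRSF5 (0.556, 0.515 and 1.04 per 100, −1.31 ± 0.26, adjusted p = 0.0137) were still lower in the ratio, where 2.46% of all genes passed, and the intron reads of SRSF6 were higher (0.92), where 2.85% did. 1 h after the fifth exposure the ratio was lower for SRSF3 (2.07, 3.38 and 2.88 per 100, −1.35 ± 0.24, adjusted p = 0.00174) and SRSF5 (0.548, 1.14 and 0.671 per 100, −1.02 ± 0.26, adjusted p = 0.0162) and higher for CLK3 (1.12 ± 0.29, adjusted p = 0.0194) and SRSF11 (0.90 ± 0.26, adjusted p = 0.0317), where 11% of all genes passed. Without 1 µM Acute 1 h replicate 2, which is in neither group, CLK1 (1.19) and LUC7L (−0.88) passed with these 4, where 11.7% of all genes did. The first 2 also passed as plain ratios and the last 2 did not. In intron reads SRSF6 (1.18) and CLK3 (1.05) were higher and LUC7L (−1.14) lower there, where 8.57% of all genes passed. The repeated and the single exposure did not differ past the threshold for any of the 10 genes in the ratio or the intron reads by edgeR, where 0% and 0.0407% of all genes did and 1439 and 1715 had an unadjusted p under 0.05. Of the 10, SRSF6 in the ratio and SRSF6 and CLK4 in the intron reads had an unadjusted p under 0.05, and DESeq2 called 1 in the intron reads. Without replicate 2 of the single exposure none of the 10 passed in either measure, where 0% of all genes did in each. At 24 h after the fifth exposure 0% of all genes passed in either measure, with 433 and 512 at an unadjusted p under 0.05, SRSF6 in the ratio being the only one of the 10, and DESeq2 called 6 genes in intron reads and none of the 10.

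Between doses, the change of the relative intron ratio at Acute 1 h was higher at 1 mM than at 1 µM for SRSF3 (difference 1.88 ± 0.31, adjusted p = 0.00645) and CLK4 (1.22 ± 0.33, adjusted p = 0.0356), where 9.02% of all genes passed. The intron reads gave the same 2 genes (SRSF3 1.65 ± 0.33, adjusted p = 0.00704; CLK4 1.36 ± 0.28, adjusted p = 0.00706), where 25.8% of all genes passed. All 10 differences were positive in both measures. Without 1 µM Acute 1 h replicate 2 SRSF3 passed in the ratio (1.82) and CLK4 did not (1.02, adjusted p = 0.0705), that of SRSF11 was negative (−0.13), and SRSF3 (1.73) and CLK4 (1.34) passed in intron reads, where 5.8% and 19.3% of all genes passed. This too rested on the scale, since the median of all genes was −0.95 in the plain ratio and −1.31 in intron reads scaled by exon reads. As plain ratios SRSF3 differed by 0.79 (adjusted p = 0.13) and CLK4 by 0.13 (adjusted p = 0.79), and in intron reads scaled by exon reads CLK4 differed by −0.11. The intron reads of SRSF3 per 100 exon reads were at 3.54 to 3.98 after 1 mM and 2.68 to 3.95 after 1 µM, and at 5.77 to 7.02 and 6.67 to 15.1 in the PBS groups. The 15.1 is that of 1 µM PBS replicate 2, one of the libraries with a high mitochondrial share, which also had the lowest SRSF3 level at 32.8 TPM. Without it the difference of SRSF3 was 1.55 in the ratio and 1.51 in intron reads, both past the threshold.

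In the time course CLK1, SRSF3 and SRSF5 rose in the relative intron ratio on 1 or more days, in 5 calls of 40. CLK1 went from 11.6, 9.65 and 10.5 intron reads per 100 exon reads in the ascorbic acid control to 20.3, 27.5 and 23.0 on day 3 (1.22 ± 0.22, adjusted p = 0.00433), the day of its lowest level. It stood at 15.0, 13.5 and 10.2 on day 2, at 21.1, 15.1 and 13.3 on day 4 and at 12.3 and 19.9 on day 5, which did not pass. After a single exposure SRSF3 had fewer intron reads per exon read than PBS at either dose, past the threshold in the relative ratio at 1 µM only. After 5 daily exposures to 1 mM it was lower past the threshold in that ratio only without 1 mM Acute 24 h replicate 1. Those are other experiments with another control. In the time course SRSF3 had more intron reads per exon read than the ascorbic acid control. It went from 2.81, 3.16 and 3.09 to 4.91, 4.30 and 4.40 on day 2 (0.77 ± 0.14, adjusted p = 0.00501), 4.44, 3.82 and 4.46 on day 3 (0.56 ± 0.14, adjusted p = 0.0359), 4.55, 4.62 and 5.04 on day 4 (0.71 ± 0.14, adjusted p = 0.00946) and 4.50 and 4.50 on day 5 (0.47 ± 0.16, adjusted p = 0.15). All treated libraries were above all control libraries. SRSF5 went from 0.414, 0.519 and 0.546 to 1.30, 1.32 and 0.917 on day 3 (1.34 ± 0.25, adjusted p = 0.00626), and its intron reads were higher on days 2 (1.17, adjusted p = 0.0311) and 3 (1.28, adjusted p = 0.0253).

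The counts in the ratio were 1, 3, 1 and 0 of 10 genes on days 2 to 5, where 2.13%, 2.16%, 1.78% and 0.642% of all genes passed, and those in intron reads were 2, 1, 0 and 0, where 3.52%, 2.53%, 0.789% and 0.789% did. On day 5 CLK2 and SRSF3 had an unadjusted p under 0.05 in the ratio and SRSF3 and SRSF5 in intron reads, as the latter 2 did on day 4, and DESeq2 called 1 of the 10 in intron reads on day 4 and none on day 5. The plain ratio kept CLK1 (1.15, adjusted p = 0.011) and SRSF5 (1.26, adjusted p = 0.018) on day 3 and SRSF3 on days 2 and 4 (0.58, adjusted p = 0.025, and 0.65, adjusted p = 0.037). Leaving out ascorbic acid control replicate 2 left 1 of the 5 calls in the ratio, leaving out any other library of days 2 to 4 or the control left 3 to 6, and leaving out either library of day 5, which is then 1 library assumed to vary like the other groups, gave 11. No share of all genes stands beside these counts of fits without 1 library. With the agonists edgeR called none of the 10 genes in the ratio or intron reads, where 0% of all genes passed in each. The ratio had 116 genes with SKF82958 and 280 with quinpirole at an unadjusted p under 0.05, SRSF7 and CLK3 among them, the intron reads had 131 and 2525 with none of the 10, and DESeq2 called none of the 10 in intron reads. Without Quinpirole replicate 1 none of the 10 passed either, where 0.24% of all genes passed with SKF82958 and 0.0211% with quinpirole in the ratio and 0.246% and 0.0615% in intron reads. The CLK1 ratio in Water, 27.9, 26.8 and 26.7 per 100, was within the range of the 1 mM Chronic 1 h libraries.

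Reads across splice junctions gave a further view of the introns that the annotation counts as exonic. SRSF5 had 41.8, 42.3 and 42.7 junction reads per 100 exon reads in 1 mM PBS and 60.8, 61.9 and 62.0 at 1 mM Acute 1 h. The groups were far apart, and the exon reads without a junction fell against those across one by −0.99 ± 0.08 on the log2 scale, past the threshold, where 2.52% of 13745 genes passed in this measure. At 1 µM SRSF5 went from 47.3, 50.6 and 52.6 to 68.2, 70.2 and 61.5 per 100 (−1.03 ± 0.20, past the threshold), where 0.235% of all genes passed. SRSF5 thus changed in the make-up of its exon reads at both doses while its level did not pass the test at either. After 5 exposures to 1 mM it stood at 51.1, 51.1 and 52.6 per 100, between the PBS and acute libraries, and differed from both past the threshold (−0.50 and 0.48), where 0.56% and 0.204% of all genes did. In the time course the same measure passed on days 4 (−0.45) and 5 (−0.50).

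CLK3 moved the other way. It had 54.5, 56.2 and 53.4 junction reads per 100 exon reads in 1 µM PBS and 37.9, 26.5 and 33.6 at Acute 1 h (1.28 ± 0.20), and 34.4, 40.8 and 37.6 at Chronic 1 h (1.057), both past the threshold, and 0.157% of all genes passed in the latter. CLK4 also had relatively fewer junction reads at 1 µM Acute 1 h (40.9, 38.3 and 43.3 against 58.8, 71.3 and 62.4 per 100, 1.34 ± 0.25). At 1 mM Acute 1 h CLK3 was at 46.5, 42.4 and 46.8 against 50.4, 52.2 and 52.7 per 100 (0.51), which did not pass. CLK1 had fewer junction reads on all 4 days of the time course, with 66.8, 64.5 and 66.8 per 100 in the control and 52.6, 51.3 and 56.8 on day 3, and the measure passed on days 2 to 5 (0.64, 0.76, 0.66 and 0.73). Few genes did so: 1, 2, 2 and 3 of 13272 genes on these days (0.00753%, 0.0151%, 0.0151% and 0.0226%), so that CLK1 was the only gene called on day 2, and CLK1 and SRSF5 the only ones on day 4. At 1 mM CLK1 went from 55.9, 56.1 and 57.6 to 56.8, 59.6 and 57.6 per 100 at Acute 1 h, and these groups overlapped. None of the 10 genes passed with either agonist, where 0.00792% of all genes passed with SKF82958 and 0% with quinpirole, with 446 and 580 genes at an unadjusted p under 0.05. This measure was added after the data had been seen.

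**Figure D3:**
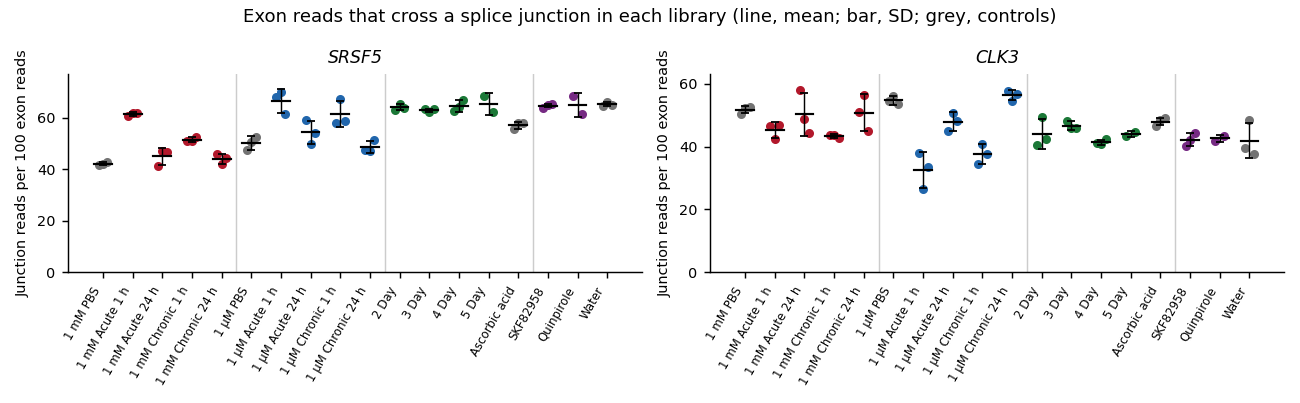
Junction reads per 100 exon reads of SRSF5 and CLK3 in each library by group, with lines at the group mean, bars of 1 SD, grey points for controls and Quinpirole replicate 1 left out. SRSF5 rises from 41.8 to 42.7 in 1 mM PBS to 60.8 to 62.0 at 1 mM Acute 1 h, and CLK3 falls from 53.4 to 56.2 in 1 µM PBS to 26.5 to 37.9 at 1 µM Acute 1 h.

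Other genes of the circuit gave a background for these values. Of 24 nuclear speckle genes, 10 fell in exon reads at 1 mM Acute 1 h and none rose, where 7.94% of all genes were lower and 8.04% higher, with a median of −0.30 against 0.01 over all genes. Among them TAF1D, which hosts small nucleolar RNAs in its introns, fell by −1.42 ± 0.23 (adjusted p = 0.0021), NKTR by −1.09 ± 0.12 (adjusted p = 0.00017), RBM5 by −0.69 ± 0.10 and RBM25 by −0.64 ± 0.09. At 1 µM 2 of the 24 rose and 2 fell, where 3.25% and 2.52% of all genes did. In the relative ratio at 1 mM, 8 rose and 1 fell (TAF1D 1.69 ± 0.19, SREK1 1.03 ± 0.21, PNISR 0.79 ± 0.17, RBM39 0.76 ± 0.15), where 15.5% of all genes rose and 14% fell, with a median of 0.30 against 0.05. At 1 µM 2 rose and 7 fell, where 6.3% and 9.75% of all genes did, and the difference between doses passed for 7 genes, all higher at 1 mM, where 9.02% of all genes passed.

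Of the 9 SR and SR-like genes outside the 10, TRA2B, a splicing activator with its own poison exon, rose by 0.67 ± 0.16 at 1 mM Acute 1 h (adjusted p = 0.013), SRSF8 rose by 0.54 ± 0.13 (adjusted p = 0.014) and none fell. At 1 µM 3 of the 9 rose and none fell, where 3.25% and 2.52% of all genes did. The 6 other kinases of SR proteins had a median of −0.00 in exon reads, and in the ratio SRPK2 (−0.42 ± 0.13) and SRPK1 (−0.47 ± 0.15) fell at 1 mM Acute 1 h, where 14% of all genes did. Among the 5 other LUC7 and U1 snRNP genes LUC7L3 fell in exon reads by −0.78 ± 0.22 (adjusted p = 0.028) and SNRPC rose by 0.41 ± 0.09 (adjusted p = 0.0083) at 1 mM, and LUC7L2 (1.04 ± 0.16) and LUC7L3 (1.01 ± 0.20) rose in the ratio, where LUC7L fell and 15.5% of all genes rose. Of 14 hnRNP genes 2 rose and 1 fell in exon reads at 1 mM Acute 1 h, of 15 core spliceosome genes 3 rose and 1 fell, where 8.04% of all genes rose and 7.94% fell, and the 10 genes of nonsense-mediated decay had a median of 0.04. At 1 mM Acute 24 h 4 of those 10 were higher in exon reads, where 1492 of 17804 genes were higher and 15.5% passed in either direction. With the agonists no gene of these lists passed by edgeR in any measure.

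**Figure D4:**
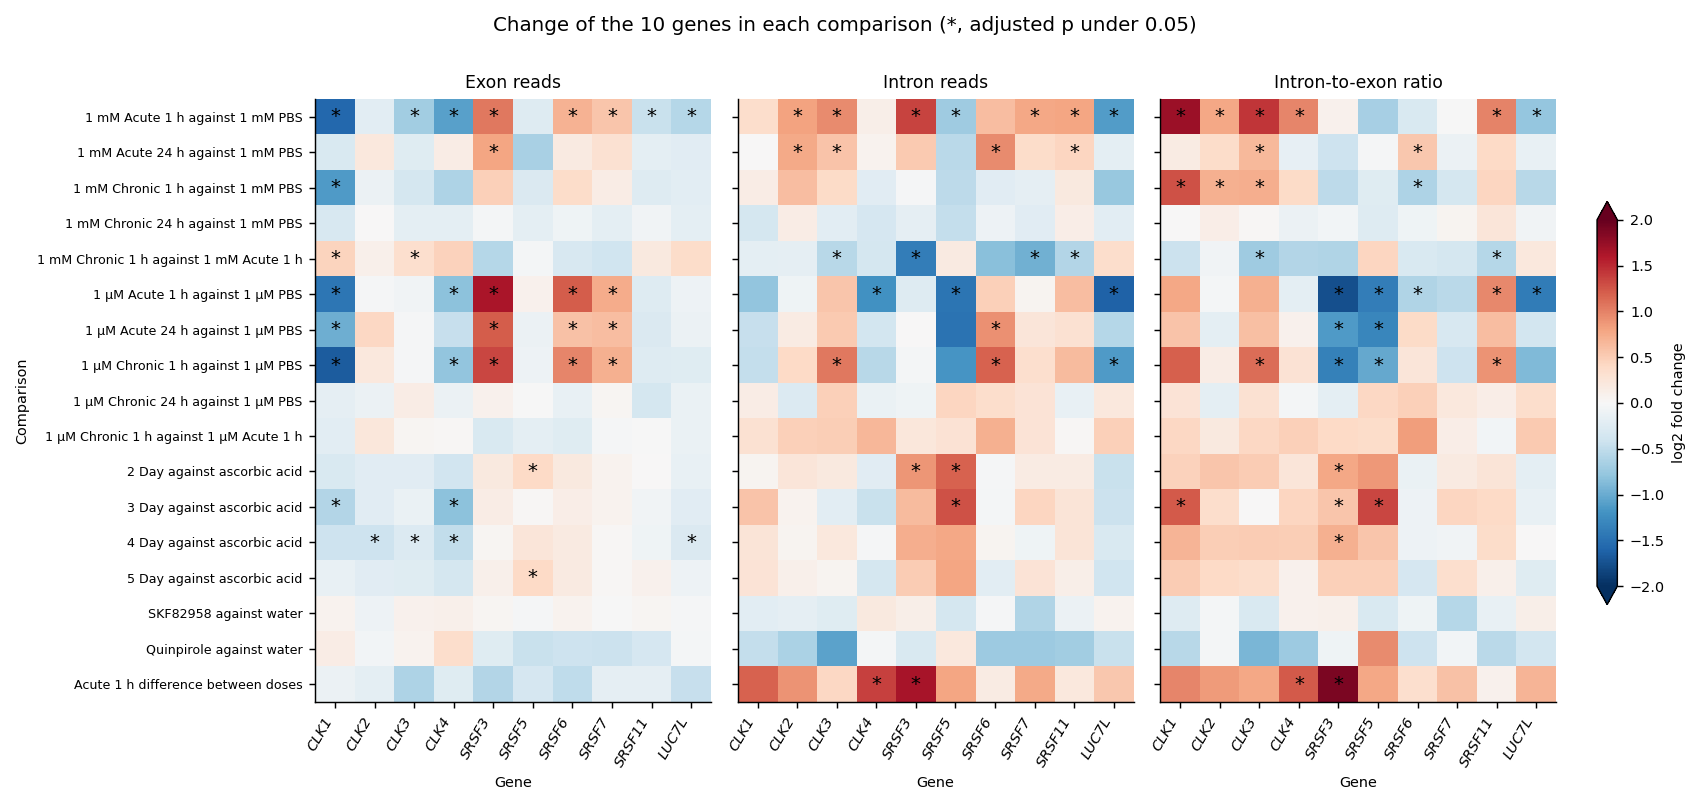
Log2 fold change of the 10 genes (columns) in the 17 comparisons (rows) for exon reads, intron reads and the intron-to-exon ratio relative to all genes, from blue (lower) to red (higher), with an asterisk where the adjusted p was under 0.05. CLK1 is blue in exon reads and red in the ratio 1 h after dopamine at 1 mM, SRSF3 is red in exon reads at both doses and blue in the ratio at 1 µM, and the agonist rows hold no asterisk.

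The sequence upstream of the genes that moved most in opposite directions is given for CLK1, CLK4 and SRSF3, because dopamine receptors signal through cyclic AMP and the response element of that pathway, TGACGTCA, is a defined sequence. The windows are the first listed per gene in RefSeq on GRCh38.p14, each the 250 bases before an annotated start on the transcribed strand, and capitals mark TGACG, which is part of that element, or its reverse complement CGTCA.
CLK1, chr2:200864659-200864908, minus strand: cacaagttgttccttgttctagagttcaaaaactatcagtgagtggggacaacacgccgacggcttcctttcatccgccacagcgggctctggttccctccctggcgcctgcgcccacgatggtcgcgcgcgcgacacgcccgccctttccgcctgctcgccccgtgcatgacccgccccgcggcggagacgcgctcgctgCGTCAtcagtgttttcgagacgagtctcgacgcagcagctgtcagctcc
CLK4, chr5:178627051-178627300, minus strand: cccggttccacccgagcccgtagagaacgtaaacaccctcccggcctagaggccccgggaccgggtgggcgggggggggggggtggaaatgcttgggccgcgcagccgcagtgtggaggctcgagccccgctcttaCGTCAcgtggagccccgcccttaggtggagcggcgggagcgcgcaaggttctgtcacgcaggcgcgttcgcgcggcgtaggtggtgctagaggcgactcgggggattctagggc
SRSF3, chr6:36594112-36594361, plus strand: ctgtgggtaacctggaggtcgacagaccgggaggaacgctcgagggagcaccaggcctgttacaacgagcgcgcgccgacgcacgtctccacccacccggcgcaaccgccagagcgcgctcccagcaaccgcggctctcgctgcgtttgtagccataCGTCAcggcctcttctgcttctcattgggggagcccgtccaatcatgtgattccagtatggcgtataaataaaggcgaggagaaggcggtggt
All 10 genes had at least 1 window. The whole element TGACGTCA was in the windows of none of them and in 1.65% of 35116 windows, and TGACG on either strand was in those of 7 of the 10 genes (CLK1, CLK3, CLK4, SRSF3, SRSF5, SRSF7 and SRSF11) and in 21.2% of all windows. Genes with several windows had more than 1 chance to hold it. The letters were in the windows of genes that fell and of genes that rose.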

How the data were processed

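RNA-seq libraries of H9-derived cultures were analysed from 53 per-library gene tables, of 54 samples labelled (5 Day replicate 1 was not analysed here). The authors aligned and counted the reads in CLC Genomics Workbench on GRCh38 (hg38) with the Ensembl annotation, and the deposited counts are raw exon, intron, gene and exon junction read counts per gene. The TPM values were computed by the authors from the exon reads and are used for levels only. The strand setting and the sequencing provider of each library are not given in the sources used here.

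Groups came from the sample labels. Counts were tested per experiment with all its groups in 1 fit, with edgeR 4.0.16 (quasi-likelihood test, TMM scaling, filterByExpr with a minimum count of 10 and a total of 15, Benjamini-Hochberg adjustment over all genes tested, threshold 0.05) in R 4.3.3. Exon and intron reads were fitted apart. The relative intron-to-exon ratio was the interaction of kind of read and group over both columns of each library, with the library as a block and TMM within each kind of read. The plain ratio used 1 library size for both. The dose difference was an interaction over 12 libraries. DESeq2 1.42.0 and limma 3.58.1 were alternatives, as were scaling, filters, unique or total gene reads, a block on replicate numbers, and leaving out each library. Where DESeq2 is said to have called some of the 10 genes, the count stands without a share of all genes. The junction measure and the fits without Quinpirole replicate 1 with a block were chosen after seeing the data. Figures were drawn with matplotlib 3.10.9.

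All 10 genes and, of each gene list, at most 4 genes with the smallest adjusted p at 1 mM Acute 1 h are named, together with the 5 genes most like CLK1. The genes and the lists were chosen with earlier results of these data known. On simulated counts for 1 mM Acute 1 h with 200 genes changed by 2-fold, 98% were found in exon reads among 17519 genes, 90% in intron reads among 23285 and 57.5% in the ratio among 15876. The false calls were 11, 9 and 3. The simulation gave all libraries the same composition and all genes the same spread. It changed only genes above a read minimum and held no deviating library. These shares therefore do not measure the power of the fits to the real counts. The depth of a gene's counts sets the precision of each value, and intervals cover counting error only, as reads without molecular identifiers are not independent molecules.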

Additional observations from a re-analysis of the deposited data

Results flagged for a closer look

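Under the same contrast, a single exposure against PBS at 1 h, the effects at 1 mM and 1 µM were tested for a difference by the interaction term, and 4 values passed. The relative intron-to-exon ratio of SRSF3 changed more upward at 1 mM than at 1 µM by 1.88 on the log2 scale, and that of CLK4 by 1.22. The intron reads of SRSF3 differed by 1.65 and those of CLK4 by 1.36 in the same direction. With 1 library size for both kinds of read the differences in the ratio were 0.79 for SRSF3 (adjusted p = 0.13) and 0.13 for CLK4 (adjusted p = 0.79), by edgeR's quasi-likelihood test. The doses were separate experiments, so that dose and experiment cannot be told apart.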

How the results depend on the processing

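Of the calls of single genes, 566 of the repeats under another setting kept side and direction, 125 lost the call and 22 reversed, and of those without 1 library 1106 kept it, 261 lost it and none reversed. In counts of calls (1 mM and 1 µM each over 40 gene and comparison pairs, the time course over 40), the main values in the order 1 mM, 1 mM chronic against acute, 1 µM, time course and dose difference were 12, 2, 11, 5 and 2 in the ratio, 10, 2, 14, 8 and 0 in exon reads, and 11, 4, 7, 3 and 2 in intron reads. Leaving out 1 library gave ranges of 6 to 16, 0 to 5, 8 to 13, 1 to 11 and 1 to 5 in the ratio, 6 to 20, 0 to 6, 11 to 14, 3 to 11 and 0 to 1 in exon reads, and 5 to 14, 2 to 5, 3 to 10, 0 to 10 and 2 to 6 in intron reads. Chronic against acute at 1 µM had 0 calls in the ratio and exon reads without any library and 0 to 1 in intron reads, and the agonists 0 to 0 in each measure. Intron calls at 1 mM were 5 without PBS replicate 2 and 7 without replicate 3, and those at 1 µM were 4 without PBS replicate 1 and 3 without replicate 3. Calls in the dose difference went to 5 (ratio) and 6 (intron) without 1 µM Acute 1 h replicate 3. The 2 ratio calls of the dose difference became 1 without any single 1 mM PBS library, 1 mM Acute 1 h replicate 1 or 2, 1 µM PBS replicate 1 or 3, or 1 µM Acute 1 h replicate 2, whose removal also gave 1 exon call. In chronic against acute, exon calls at 1 mM were 1 and 4 without Chronic 24 h replicates 1 and 3, intron calls at 1 mM were 2 without Acute 1 h replicate 1, and intron calls at 1 µM were 1 without Chronic 1 h replicate 2. In the time course, exon calls were 5 and 4 without 4 Day replicates 2 and 3 and 3, 5 and 4 without ascorbic acid control replicates 1, 2 and 3, and ratio calls were 3 without 2 Day replicate 2 and 3 without ascorbic acid control replicate 1. Intron calls in the time course were 0, 0 and 1 without ascorbic acid control replicates 1, 2 and 3, 5 without 3 Day replicate 1, and 7 and 10 without 5 Day replicates 2 and 3. Without either of these the ratio had 11, and day 5 is then 1 library assumed to vary like the other groups.

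Requiring a log2 change of at least 1 left 3 (1 mM), 0 (chronic against acute) and 2 (time course) calls in the ratio, 4, 0, 6 (1 µM) and 0 (time course) in exon reads, and 2 and 1 (chronic against acute) in intron reads at 1 mM. With limma and a pseudocount of 0.5 the ratio had 7 calls at 1 mM, 7 at 1 µM, 3 in the time course and 1 in the dose difference, and with a pseudocount of 5 it had 3 in the time course. With no filter the ratio and the exon reads had 4 and 1 in chronic against acute at 1 mM, and the intron reads 7 in the time course. Requiring 10 reads in every library gave 7, 2, 12 and 5 intron calls at 1 mM, chronic against acute, 1 µM and the time course. Fitting only the groups compared gave 6 calls in the ratio for chronic against acute, 6 at 1 µM and 13 in the time course, 18, 8 and 9 in exon reads at 1 mM, chronic against acute and 1 µM, and 7 in intron reads of the time course. DESeq2 gave 4 exon calls in chronic against acute at 1 mM, 3 in the dose difference, and 12, 1 and 5 intron calls at 1 µM, in chronic against acute there and in the time course, and its size factors alone gave 5 in the last. Unique gene reads gave 4 calls in chronic against acute and 1 in the dose difference, and total gene reads 5 in the time course and 1 in the dose difference. The cause of these moves was not tested. The counts of this section stand without the share of all genes under the same setting, so that they are not results about the 10 genes alone.

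With 1 library size for both kinds of read the ratio had 4 calls in chronic against acute and 1 in the dose difference, and 5 values reversed: CLK2 at 1 mM Acute 1 h (−0.10), CLK3 (−0.13) and SRSF6 (−0.24) at Acute 24 h, and CLK3 (0.17) and SRSF11 (0.31) in chronic against acute. Scaled by exon reads, the intron reads had 7, 4 and 2 calls (chronic against acute, 1 µM, agonists), and reversed for CLK2 (−0.33), CLK3 (−0.16), SRSF7 (−0.33) and SRSF11 (−0.32) at Acute 1 h, CLK2 (−0.20), CLK3 (−0.39) and SRSF11 (−0.53) at Acute 24 h, CLK3 (0.52), SRSF7 (0.12) and SRSF11 (0.50) in chronic against acute, and CLK4 in the dose difference (−0.11). These follow the shift of the median of all genes. The junction measure gave 2, 1, 4 and 0 calls at 1 mM, in chronic against acute, at 1 µM and in the dose difference, and differed in sign from the ratio for CLK4 at Acute 1 h (−0.085), SRSF6 at Acute 24 h (−0.22), CLK1 at Chronic 1 h (−0.14), CLK3 in chronic against acute (0.018), SRSF5 on day 3 (−0.35) and CLK4 in the dose difference (−1.43).

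Groups share replicate numbers, and the deviations of same-numbered libraries had mean correlations of 0.00196, 0.0229, −0.0103 and −0.0248 in the 4 experiments. The numbers were therefore not taken to pair them. In the 1 µM experiment single pairs ran from −0.301 to 0.446, and replicate 2 of PBS, Acute 1 h and Chronic 1 h had a high mitochondrial share. Whether replicate 2 had a common source there was not tested. With a replicate block the calls were 10, 12 and 5 in the ratio at 1 mM, 1 µM and in the time course, 10, 13 and 7 in exon reads, 10, 8 and 2 in intron reads, 1 in exon reads of chronic against acute at 1 mM, 1 in the ratio and 3 in the intron reads of the dose difference, and 0 with the agonists. Counting depth limits CLK4 and the introns of SRSF5 most.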

Other observations

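Over all 53 libraries, the genes whose exon level followed that of CLK1 most closely, by Pearson's r of log2(CPM + 1) among 11323 genes with a mean of at least 50 exon reads and 20 intron reads per library, were ATF2 (0.842), PHF21A (0.795), HSD17B7 (0.791), AL683813.2 (0.783) and KLHDC10 (0.770). Without Quinpirole replicate 1 the list was led by TAF1D (0.901) and CLK4 (0.876), followed by ATF2 (0.848), PPP1CC (0.819) and KLHDC10 (0.815), while SRSF6 (−0.821), SRSF3 (−0.729) and SRSF7 (−0.711) ran opposite to CLK1. For the intron-to-exon ratio the closest genes were CALM2 (0.886), SRSF11 (0.882), ZKSCAN8 (0.878), EDRF1 (0.847) and RCOR2 (0.846) in 53 libraries, and CALM2 (0.845), TP53I11 (0.810), SRSF11 (0.795), ZKSCAN8 (0.792) and NRP2 (0.784) in 52. Each gene was centred within each experiment, so that differences in level between experiments do not enter. The libraries share groups, and the values are descriptions over libraries with no test.

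Per base, the introns of SRSF6 had a median of 16.2% of the read density of its exons, those of CLK4 11.8%, CLK1 10.99%, CLK3 9.71%, SRSF11 6.49%, SRSF7 6.03%, SRSF3 5.70%, LUC7L 5.39%, CLK2 4.70% and SRSF5 0.154%. By this measure CLK1, CLK3 and CLK4 stood above CLK2 within the kinase family, and SRSF5 had the lowest value. The lengths were those of the whole annotated gene, so that this order depends on the annotation. SRSF5 was divided by 39749 intron bases, whereas its canonical introns hold 3368. CLK3 was divided by 20398 exon bases, and its overlap with EDC3 also bears on its value. In SRSF6 few intron reads were unique, which bears on its value.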
